A study of Mus musculus with 42 samples.

Results

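The genes described are 9 transcription factors that mark the hepatocyte or the adipocyte lineage: Hnf4a, Foxa1, Foxa2, Foxa3, Onecut1, Nr1h4, Cebpa, Cebpb, and Pparg. They were found by gene name in the table of read counts, where each name occurred once among 54532 genes, and all 9 averaged 25 counts or more in the 42 libraries. Poly(A) RNA labelled as liver came from female mice without any listed genetic change, C57BL/6 by the labels and C57BL/6NHsd in the study's methods, which received their diets from weaning at 3 weeks of age and were killed 3 weeks later. The diets were the AIN93G standard diet and a high-fat diet (HFD) of modified AIN93G composition with soybean oil as the fat, and 3 libraries per diet came from each time, at steps of 4 h of zeitgeber time (ZT) between ZT 0, when the lights came on, and ZT 24, with darkness from ZT 12. ZT 0 and ZT 24 were labelled as separate groups, and among the 6 libraries of ZT 12 the replicate numbered 2 on AIN93G and the replicate numbered 3 on the HFD carried a light phase label, while the others carried a dark phase label.

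HNF4A is a nuclear receptor that controls much of the hepatocyte program, and FOXA1, FOXA2, and FOXA3 are forkhead proteins that open chromatin at liver genes. ONECUT1 is a homeodomain factor of the developing liver, bile ducts, and pancreas, and NR1H4 is the bile acid receptor FXR, which in liver represses bile acid synthesis and promotes bile acid export. C/EBPα and C/EBPβ act in hepatocytes and in adipocytes alike, and PPARγ, encoded by Pparg, is the nuclear receptor required for the formation of adipocytes.

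Total counts ranged from 14592481 to 21368409 per library. Levels are CPM, that is counts scaled to a common library total, with the trimmed mean of M values (TMM) over the 42 libraries as scaling. The tissue label was checked against Alb, the gene of serum albumin. Alb lay between 73322 and 130466 CPM in 32 libraries, 13 on AIN93G and 19 on the HFD, which are called liver libraries here. It lay between 11.3 and 65.7 CPM in the other 10, which are called adipocyte-rich because Adipoq, the gene of the adipocyte hormone adiponectin, lay between 853 and 2019 CPM there and at 5.60 CPM at most in liver. These 10 were the 3 AIN93G libraries of ZT 16, the 3 of ZT 20, the replicates numbered 1 and 2 of AIN93G ZT 24, and the replicates numbered 1 and 2 of HFD ZT 24, so that at ZT 16 and ZT 20 the diet and the tissue content cannot be told apart. Alb made the split, and the other 9 hepatocyte markers were all higher in liver without overlap, while all 9 adipocyte markers and all 5 fibroblast markers were higher in the adipocyte-rich libraries without overlap. The same held there for 2 of 5 brown adipocyte, 2 of 8 mammary epithelium, 3 of 6 cholangiocyte, and 2 of 5 endothelial markers. In liver, 2 of 5 macrophage, 1 cholangiocyte, and 1 endothelial marker were higher without overlap, and all 6 lymphocyte markers overlapped, with sums of 12.6 to 34.8 CPM in liver and 15.0 to 627 CPM in the adipocyte-rich libraries.

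Start regions are shown for 5 of the genes, because they stand for the patterns described below: a gene nearly missing outside the liver libraries, with 2 alternative starts (Hnf4a), the bile acid receptor (Nr1h4), factors present in both kinds of library (Foxa1 and Cebpa), and the adipocyte factor (Pparg). Each line holds the 250 bases before a RefSeq start on GRCm38.p6, 5′ to 3′ in the direction of the gene. Capitals mark letters that match any motif searched, on either strand. The Cebpa window ends at the base before the gene's first listed base, the upstream Hnf4a window reaches into the gene's listed span, and the others lie inside that span. Whether they are exonic or intronic was not examined. The bases just after the start were found in a GENCODE transcript of the same gene for every window except the downstream one of Hnf4a, whose start thus rests on RefSeq alone.
Hnf4a, upstream start, chr2:163506607-163506856, plus strand: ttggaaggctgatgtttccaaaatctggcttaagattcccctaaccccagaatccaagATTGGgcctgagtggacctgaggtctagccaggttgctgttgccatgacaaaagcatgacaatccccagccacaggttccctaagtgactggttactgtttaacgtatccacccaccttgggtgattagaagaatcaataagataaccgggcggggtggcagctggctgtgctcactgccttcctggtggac
Hnf4a, downstream start, chr2:163546905-163547154, plus strand: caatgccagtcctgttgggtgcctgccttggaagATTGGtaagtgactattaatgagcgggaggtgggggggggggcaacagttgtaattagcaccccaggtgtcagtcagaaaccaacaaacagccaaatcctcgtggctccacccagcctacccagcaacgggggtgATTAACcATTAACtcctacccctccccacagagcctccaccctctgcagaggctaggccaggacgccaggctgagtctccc
Nr1h4, chr10:89506659-89506908, minus strand: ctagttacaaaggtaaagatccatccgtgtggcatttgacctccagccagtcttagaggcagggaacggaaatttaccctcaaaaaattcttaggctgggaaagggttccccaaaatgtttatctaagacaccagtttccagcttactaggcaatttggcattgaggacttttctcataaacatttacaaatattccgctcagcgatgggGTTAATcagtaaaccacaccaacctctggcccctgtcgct
Foxa1, chr12:57546112-57546361, minus strand: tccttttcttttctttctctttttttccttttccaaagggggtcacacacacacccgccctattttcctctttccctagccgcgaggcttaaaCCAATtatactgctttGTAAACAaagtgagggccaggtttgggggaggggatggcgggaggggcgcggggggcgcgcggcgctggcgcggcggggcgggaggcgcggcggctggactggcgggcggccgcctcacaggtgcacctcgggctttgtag
Cebpa, chr7:35119043-35119292, plus strand: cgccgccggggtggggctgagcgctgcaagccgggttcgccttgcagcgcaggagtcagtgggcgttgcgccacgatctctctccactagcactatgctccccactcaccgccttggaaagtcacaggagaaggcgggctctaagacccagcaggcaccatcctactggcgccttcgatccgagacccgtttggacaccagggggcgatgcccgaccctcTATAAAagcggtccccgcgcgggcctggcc
Pparg, most downstream start, chr6:115421816-115422065, plus strand: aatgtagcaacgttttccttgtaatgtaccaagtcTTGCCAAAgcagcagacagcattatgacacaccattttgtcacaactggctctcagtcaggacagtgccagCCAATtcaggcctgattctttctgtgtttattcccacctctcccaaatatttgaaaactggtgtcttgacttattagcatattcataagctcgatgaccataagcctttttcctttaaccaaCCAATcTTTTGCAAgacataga

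The letters searched were GTTAAT (a core of the HNF1 site), TGTTTAC (forkhead), CAAAGTCCA (HNF4), ATCGAT (ONECUT), TTGCNNAA (C/EBP), CACGTG (E-box), CCAAT, and TATAAA. All 9 genes had an entry, with 14 start windows among them. GTTAAT occurred in 6.43% of 32841 mouse windows of the same length and in 3 of the 14, which belonged to Hnf4a, Foxa2, and Nr1h4. The downstream Hnf4a window held it in 2 copies, at bases 81 to 76 and 74 to 69 before the start, both on the minus strand. TGTTTAC occurred in 3.17% of all windows and in 1 of the 14, that of Foxa1. TTGCNNAA occurred in 9.57% of all windows and in 1 of the 14, the most downstream window of Pparg, where it was found in 2 places. CCAAT was in 7 and TATAAA in 4 of the 14 windows, against 33.9% and 12.4% of all windows. CACGTG was in the Onecut1 window alone (6.02% of all windows). CAAAGTCCA and ATCGAT were in none of the 14, against 0.384% and 0.728% of all windows. No base was shared by 2 of these matches. Counts were deposited per gene, so reads from the alternative starts of Hnf4a, Foxa2, or Pparg cannot be assigned to a start.

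The hepatocyte factors other than Foxa1 were nearly or wholly missing from the adipocyte-rich libraries. Hnf4a, Foxa2, Foxa3, Onecut1, and Nr1h4 were each higher in every liver library than in any adipocyte-rich one. Of the 13394 genes that averaged 25 counts or more, 16.8% were higher in liver without overlap. Pparg was the single member that was higher in every adipocyte-rich library, and 16.4% of all genes were. Foxa1, Cebpa, and Cebpb overlapped. The libraries were split by Alb, a measured value, so the comparison is a description with no test. In such bulk samples, fewer cells of a type and less RNA per cell cannot be told apart.

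**Figure D1:**
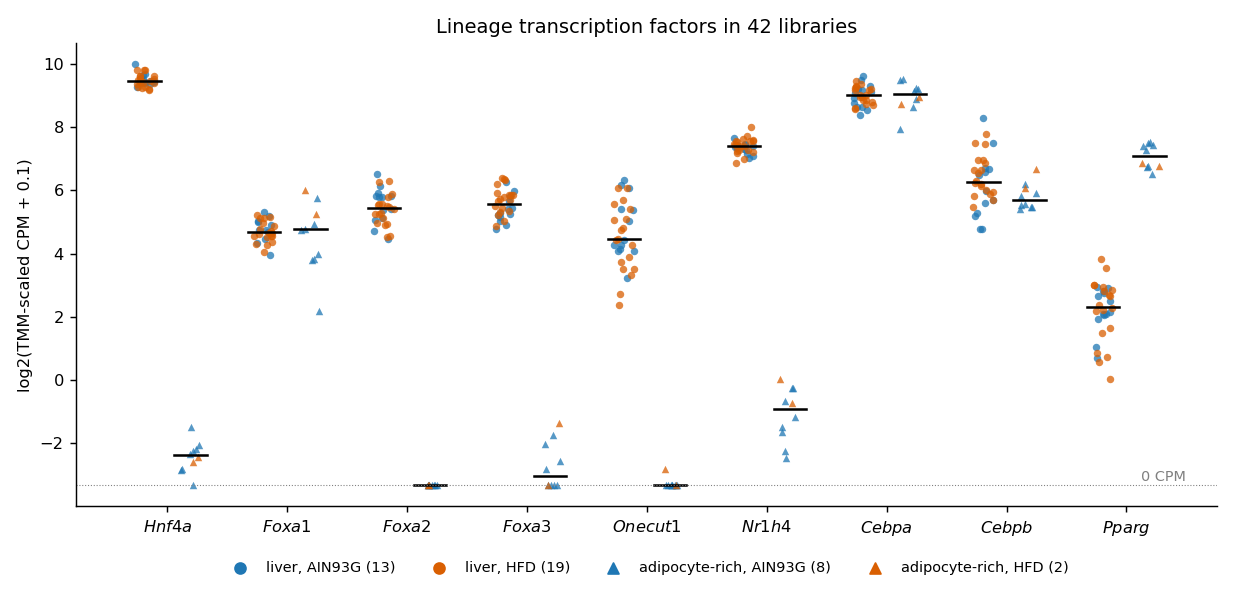
Level of each transcription factor in each library, as log2 of TMM-scaled CPM plus 0.1, with liver libraries as circles, adipocyte-rich libraries as triangles, and medians as bars. Foxa2 sat at 0 in all 10 adipocyte-rich libraries, Pparg sat at 91.0 CPM or above there, and Cebpa, Cebpb, and Foxa1 overlapped.

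Hnf4a lay between 574 and 1009 CPM in liver, with a median of 697. It had between 0 and 6 counts in the adipocyte-rich libraries, where the median of 0.092 CPM was under the floor of 3 counts in a library. The liver median was at least 4661-fold higher than that floor. The 24 counts of all 10 libraries together came to 0.0133% of the liver level (exact Poisson interval 0.00851 to 0.0198%), which was below the 0.0333% (0.0326 to 0.0340%) found for Alb. Intervals and floors cover counting error only. The antisense gene Hnf4aos overlaps Hnf4a and had a median of 44 counts in liver, and no source used here states that strand was used in counting.

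Foxa2, the forkhead factor required for the first steps of liver development together with Foxa1, lay between 22.1 and 92.0 CPM in liver, with a median of 43.4. No read of it was counted in any of the 10 adipocyte-rich libraries, and its liver median was at least 290-fold above the floor. Foxa3, which acts at glucose metabolism genes in adult liver, lay between 27.3 and 84.0 CPM, with a median of 47.5. It had 19 counts in the adipocyte-rich libraries together, or 0.151% of the liver level, and its liver median was at least 318-fold above the floor. Onecut1 varied most among the liver libraries, from 5.10 to 80.6 CPM with a median of 21.8. It reached 1 count at most in any adipocyte-rich library, and its liver median was at least 146-fold above the floor.

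Nr1h4 lay between 116 and 254 CPM in liver, with a median of 169, and between 0.081 and 0.926 CPM in the adipocyte-rich libraries, with a median of 0.429. Its liver median was 395-fold higher, a log2 ratio of 8.62, which was 8.03 with library size scaling, 9.65 at ZT 16 and ZT 20 alone, and 9.08 within AIN93G, so that the size of the ratio is loosely set. This was the only member of the 5 liver genes whose adipocyte-rich median was above the floor. Its 111 counts there came to 0.261% of the liver level, a larger share than the 0.0333% of Alb. The FXR targets were not all alike in this. Cyp7a1, the rate-limiting enzyme of bile acid synthesis, had a liver median of 87.7 CPM and at most 1 count in an adipocyte-rich library, and Nr0b2, the FXR-induced repressor SHP, had a liver median of 34.7 CPM and 0 counts. Abcb4, a phospholipid transporter gene, kept 17 to 236 counts in every adipocyte-rich library, at a median of 1.27 CPM against 374 CPM in liver. Of 7 FXR targets, 5 were higher in liver without overlap, and the other two, Slc51a and Slc51b, lay at 2.07 CPM or less in all libraries.

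Pparg lay between 0.929 and 14 CPM in liver, with a median of 4.90. It lay between 91.0 and 185 CPM in the adipocyte-rich libraries, with a median of 135, which was 27.5-fold higher. The log2 ratio, liver over adipocyte-rich, was −4.78, and it was −5.60 with library size scaling, −5.13 at ZT 16 and ZT 20 alone, and −5.22 within AIN93G. At AIN93G ZT 16 it was at 109, 91.0, and 105 CPM, and at AIN93G ZT 20 it was at 173, 169, and 154 CPM. At ZT 24 the AIN93G libraries were at 185 and 180 CPM and the HFD libraries at 115 and 108 CPM. Of 10 PPARγ targets, 9 were higher in the adipocyte-rich libraries without overlap, among them Fabp4, a fatty acid carrier, with medians of 5880 against 9.42 CPM, and Lpl, lipoprotein lipase, with 5645 against 34.2 CPM. Pck1, which liver also expresses, was the exception, with 84.3 to 2253 CPM against 1119 to 6303 CPM in liver.

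Cebpa was abundant in every library. It lay between 332 and 777 CPM in liver, with a median of 517, and between 246 and 734 CPM in the adipocyte-rich libraries, with a median of 530. The log2 ratio of the medians, liver over adipocyte-rich, was −0.03, and it was −0.77 when only library size was used for scaling. That scaling moved the median of all genes from −0.0006 to −0.72, so that Cebpa lay close to the median gene under both. Per kilobase of gene length, Cebpa had the highest median level of the 9 genes in liver (196 CPM per kb), ahead of Hnf4a (144) and Nr1h4 (73.4). The liver ranges of Cebpa and Hnf4a overlapped, and the range of Nr1h4 lay below both. Cebpb followed at 50.6 CPM per kb with a range that overlapped all 3, then Foxa3 (23.3), Foxa2 (18.3), Foxa1 (7.65), Onecut1 (5.30), and Pparg (1.66). In the adipocyte-rich libraries the order of medians per kb was Cebpa (201), Pparg (45.7), Cebpb (34.3), and Foxa1 (8.16).

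Cebpb, the acute-phase and early adipogenic C/EBP, lay between 27.03 and 310 CPM in liver, with a median of 76.2, and between 42.7 and 101 CPM in the adipocyte-rich libraries, with a median of 51.5. The adipocyte-rich range lay inside the liver range. The direction of the ratio depended on scaling, at 0.56 log2 units in favour of liver with TMM and −0.16 with library size. Cebpb is overlapped on the other strand by Tmem189, which had a median of 148 counts in liver and 714 in the adipocyte-rich libraries.

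Foxa1 stood apart from the other forkhead genes. It lay between 15.5 and 39.4 CPM in liver, with a median of 25.5, and between 4.49 and 63.7 CPM in the adipocyte-rich libraries, with a median of 27.2. The values there were 13.8, 26.99, and 30.2 CPM at AIN93G ZT 16, 4.49, 54.4, and 15.8 CPM at AIN93G ZT 20, 14.1 and 27.3 CPM at AIN93G ZT 24, and 37.6 and 63.7 CPM at HFD ZT 24. The log2 ratio of the medians, liver over adipocyte-rich, was −0.09, and it was −0.73 with library size scaling, 0.58 at ZT 16 and ZT 20 alone, and 0.31 within AIN93G, so that no direction is given. The highest and the lowest of the AIN93G values were thus from the same group. Markers of mammary epithelium varied in the same libraries. The sum of the 8 markers ranged from 41.7 to 543 CPM there and from 223 to 403 CPM in liver, where Krt8 and Krt18 are also expressed, Csn2 was at 0, and Krt5 and Csn3 had 3 counts at most. In the adipocyte-rich libraries, Wap had 2 counts at most, and Csn2 had a median of 0 CPM and reached 1.68 CPM. Over the 10 adipocyte-rich libraries, Foxa1 correlated with the mean log2 level of the 8 markers (Pearson r = 0.92, permutation p = 0.00025, adjusted p = 0.0040, and Spearman rho = 0.89, permutation p = 0.0011, adjusted p = 0.0171). Without the 2 libraries farthest from the median of the markers, r was 0.77.

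This was 1 of 16 relations computed, those of Foxa1, Cebpa, Cebpb, and Pparg with adipocyte, mammary epithelium, fibroblast, and lymphocyte markers, and the other 15 did not pass. The next in size was Cebpa with the adipocyte markers (r = 0.76, permutation p = 0.0095, adjusted p = 0.0758). Within the 8 AIN93G libraries, Foxa1 and the mammary markers gave r = 0.91 (exact permutation p = 0.0037) and rho = 0.81 (exact permutation p = 0.0218), and r was 0.43 without the 2 farthest libraries, so that within this diet the size of r rests on those samples, while the ranks of all 8 were also related. The HFD libraries were too few for a value of their own. Of 6 cholangiocyte markers, Krt19, Krt7, and Epcam, which mark other epithelia as well, were also higher in the adipocyte-rich libraries without overlap. Spp1 was higher in liver without overlap, with medians of 41.8 against 3.32 CPM, and Sox9 and Cftr overlapped. The part of epithelial cells in the Foxa1 level was not tested.

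**Figure D2:**
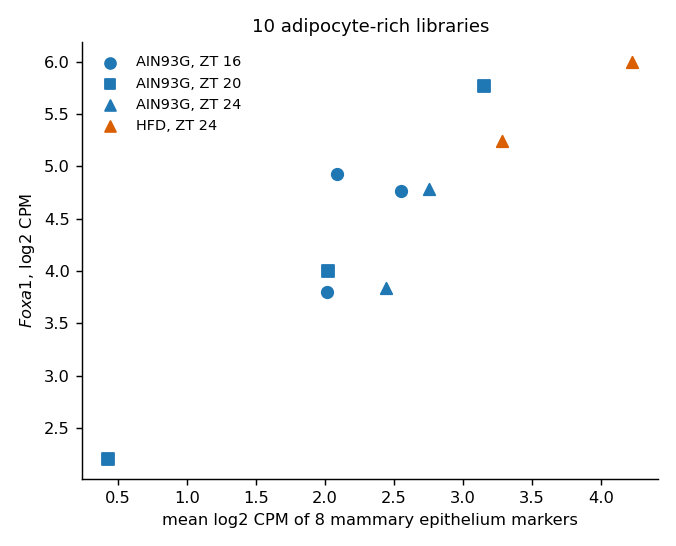
Foxa1 as log2 CPM against the mean log2 CPM of 8 mammary epithelium markers in each of the 10 adipocyte-rich libraries, with the diet as colour and the time as shape. The points run from 4.49 CPM of Foxa1 at the lowest marker level to 63.7 CPM at the highest.

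Other transcription factors of the same lineages, taken from 2 lists, had comparable patterns. Of 14 further hepatocyte factors, 13 were higher in liver without overlap, with a median log2 ratio of 7.38 over the list. Rxra, the partner of many nuclear receptors, had medians of 510 against 111 CPM, Creb3l3 357 against 0.609 CPM, and Prox1 188 against 0.650 CPM. Gata6 was the exception, with overlapping ranges and medians of 7.80 and 8.69 CPM. Of 16 further adipocyte factors, 8 were higher in the adipocyte-rich libraries without overlap, 1 was higher in liver, and 7 overlapped, with a median log2 ratio of −2.41. Ebf1, an early adipocyte factor, had a median of 79.6 CPM against 0.168 CPM, at or under the floor in liver, so that it was at least 331-fold higher. Klf15 was the factor higher in liver, with 179 against 42.5 CPM. Srebf1, the lipogenic factor, and Nr3c1, the glucocorticoid receptor, overlapped.

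**Figure D3:**
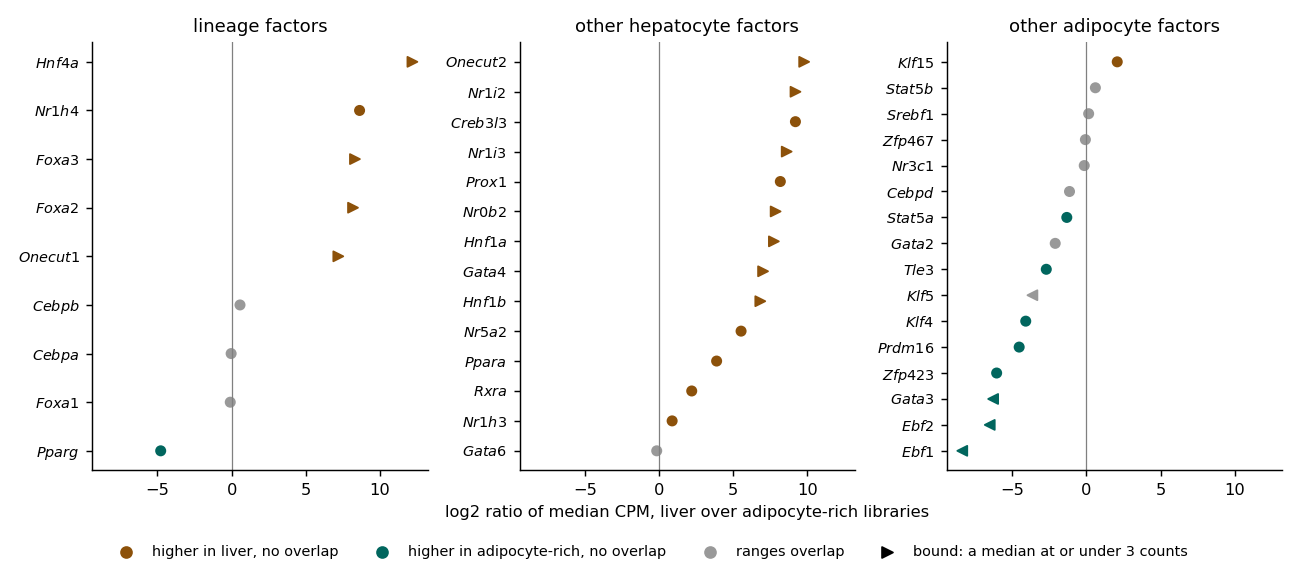
Log2 ratio of median CPM, liver over adipocyte-rich libraries, for the 9 lineage factors, 14 other hepatocyte factors, and 16 other adipocyte factors. Triangles are bounds, where a median was at or under 3 counts. Cebpa, Cebpb, and Foxa1 lie near 0 on this TMM scale, while library size scaling moves the median ratio of all genes to −0.72 and that of Cebpb to −0.16.

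The targets of the hepatocyte factors were grouped in the same way. All 7 HNF4A targets were higher in liver without overlap, among them Apob, the structural apolipoprotein of very low density lipoprotein, with medians of 6846 and 0.684 CPM. Of the 5 FOXA targets other than Alb, 3 were, and of 7 C/EBP targets, 4 were higher in liver and 2, the glucose transporter gene Slc2a4 and Lep, were higher in the adipocyte-rich libraries. Cebpa and Cebpb themselves did not differ in that way between the libraries.

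Each time point was then used to learn whether the HFD altered the level of each gene. At ZT 16, 7 of the 9 genes passed the threshold (edgeR quasi-likelihood test, Benjamini-Hochberg adjusted over all genes), as did 55.7% of all genes tested. The HFD libraries were liver and the AIN93G libraries adipocyte-rich there. Hnf4a, at 589, 891, and 733 CPM on the HFD and 0, 0.122, and 0.111 CPM on AIN93G, was among them, as were Foxa2, Foxa3, and Onecut1. Foxa2 and Onecut1 had no counts in the 3 AIN93G libraries. The liver factors entered the test only through the libraries split off by Alb, so their calls restate that split, and with at least 25 counts required in every library 1 of the 9 genes was called at ZT 16 and 0 at ZT 20. Nr1h4 was higher by 9.20 ± 0.53 log2 units (SE, edgeR adjusted p = 1.35e-05), and Cebpb, at 100.5, 94.3, and 77.8 CPM against 44.1, 42.7, and 56.0 CPM, by 0.90 ± 0.18 (edgeR adjusted p = 0.00478). Without AIN93G ZT 16 replicate 2 the Nr1h4 difference was 10.11, and with library size scaling it was 8.35. Pparg was lower by 4.70 ± 0.68 log2 units (edgeR adjusted p = 0.000931). Its difference was −5.76 without HFD ZT 16 replicate 1, −4.22 without replicate 3 of that group, and −5.54 with library size scaling, and Pparg passed each time. Cebpb was at 0.05 log2 units and did not pass with library size scaling.

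At ZT 20, 6 of the 9 genes passed, as did 58.6% of all genes. The HFD libraries were liver and the AIN93G libraries adipocyte-rich there as well. The calls of the 5 liver genes thus restate the split by Alb and give no measure of a diet difference. The 5 liver genes were higher on the HFD, with Nr1h4 at 188, 177, and 190 CPM against 0.535, 0.0812, and 0.217 CPM (log2 difference 9.30 ± 0.39 SE, edgeR adjusted p = 3.73e-07), or 10.22 without AIN93G ZT 20 replicate 1 and 8.67 with library size scaling. Pparg, at 4.74, 1.55, and 4.45 CPM on the HFD, was lower by 5.54 ± 0.36 log2 units (edgeR adjusted p = 3.95e-06), with a difference of −6.19 when scaled by library size. Cebpb (0.29 ± 0.18), Foxa1 (0.36 ± 0.71), and Cebpa (−0.06 ± 0.23, or −0.68 and called with library size scaling, edgeR adjusted p = 0.0295) did not pass. Foxa1 passed, at 1.64 log2 units (edgeR adjusted p = 0.0209), when AIN93G ZT 20 replicate 2, the library with 54.4 CPM, was left out. Most genes tested thus passed at both times, and the member counts are read against that background.

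At ZT 24 each diet held 1 liver and 2 adipocyte-rich libraries. None of the 9 genes passed with edgeR or DESeq2, 0 reached an unadjusted p under 0.05, and 0% of all genes were called with edgeR. The spread within each diet held the tissue difference, so the test was little able to show a diet difference. Hnf4a ran from −11.4 to 11.9 log2 units as each library was left out. The 2 liver libraries were at 677 CPM (AIN93G) and 899 CPM (HFD) of Hnf4a, 42.1 and 84.0 CPM of Foxa3, 56.1 and 30.9 CPM of Foxa2, and 182 and 181 CPM of Cebpb. These are single libraries per diet with no replicate check. Cebpa was lower in all 3 HFD libraries than in the AIN93G ones, with a log2 difference of −0.50 ± 0.41 (edgeR adjusted p = 1.00).

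At ZT 0, 4, 8, and 12 all 24 libraries were liver, and none of the 9 genes passed at any of these times with edgeR or DESeq2. The share of all genes called was 0.105% at ZT 0 and 0% at ZT 4, 0% at ZT 8, and 0% at ZT 12. Of the members, 0, 1, 1, and 1 reached an unadjusted p under 0.05 in that order, against 7.62%, 3.45%, 6.79%, and 4.14% of all genes, so that the members' counts lay near the background. These were Foxa1 at ZT 4, at 20.7, 16.5, and 27.1 CPM on the HFD against 39.4, 21.7, and 35.96 CPM (log2 difference −0.59 ± 0.24, edgeR adjusted p = 1.00), Pparg at ZT 8, and Foxa3 at ZT 12. At ZT 4, 3 of 9 adipocyte and 4 of 5 brown adipocyte markers also had an unadjusted p under 0.05, with none called, and AIN93G ZT 4 replicate 3 had the highest Adipoq of the liver libraries (5.60 CPM) beside 4.18 CPM of Pparg. The part of such cells in the Foxa1 values was not tested. Pparg at ZT 8 was at 7.51, 14, and 11.6 CPM on the HFD, including the highest values of all liver libraries, against 7.58, 3.72, and 6.97 CPM (0.87 ± 0.32, edgeR adjusted p = 0.713). Foxa3 at ZT 12 was at 80.3, 73.8, and 57.7 CPM against 50.1, 30, and 43.4 CPM without overlap (0.75 ± 0.23, edgeR adjusted p = 0.937). Nr1h4 did not overlap at ZT 0, at 128, 151, and 155 CPM on the HFD against 165, 170, and 174 CPM (−0.22 ± 0.11, edgeR adjusted p = 0.674).

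Over the 24 libraries of ZT 0 to ZT 12, with time as a term, 0 of the 9 genes passed with edgeR or DESeq2, against 0.15% of 12009 genes with edgeR. Of the 9, 1 had an unadjusted p under 0.05, against 7.87% of all genes. This member was Foxa3, with a log2 difference of 0.33 (95% interval 0.0040 to 0.65, edgeR adjusted p = 0.624). The intervals were narrow for Hnf4a (−0.19 to 0.12), Nr1h4 (−0.19 to 0.15), and Cebpa (−0.16 to 0.22). They were wide for Onecut1 (−1.40 to 0.28), Cebpb (−0.25 to 1.01), and Pparg (−0.15 to 0.97), so that the data limit a difference less closely there. Foxa2 had −0.34 (−0.71 to 0.04) and Foxa1 −0.17 (−0.44 to 0.10). The interaction of diet with time was past the threshold for 0 of the 9 genes with edgeR or DESeq2, with 0% of all genes called with edgeR and no member under an unadjusted p of 0.05. Of the companion hepatocyte factors, the companion adipocyte factors, and the 5 target lists, no gene passed in the diet comparison over these times with edgeR, with 2 of 14 hepatocyte factors, 0 of 9 adipocyte factors, and 3 target genes (F7, Abcb4, and Slc2a4) under an unadjusted p of 0.05.

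**Figure D4:**
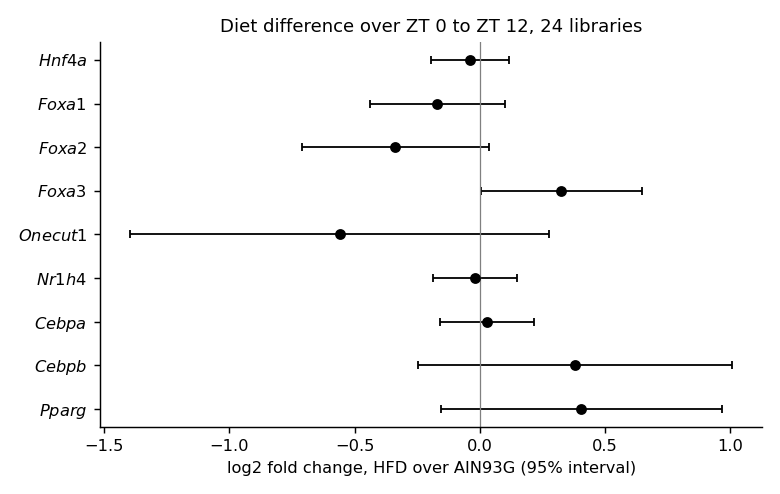
Log2 fold change of each gene, HFD over AIN93G, over the 24 liver libraries of ZT 0 to ZT 12, with points for the edgeR estimates and bars for 95% intervals. Foxa3 has the only interval that does not include 0, at an adjusted p of 0.624.

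Time of day was examined on the HFD, where the 18 libraries of ZT 0 to ZT 20 were all liver. No gene of the 9 passed the test of the 5 time terms with edgeR, against 2.71% of 12008 genes, while 5 of the 9, and 21.7% of all genes, had an unadjusted p under 0.05. With DESeq2, 2 of the 9 passed, and 1547 of all genes did. Foxa2 was nearest, with means of 40.4 ± 8.92, 46.1 ± 12.2, 28.2 ± 9.06, 39.5 ± 8.58, 41.3 ± 5.67, and 70.4 ± 13.5 CPM (SD, n = 3) from ZT 0 to ZT 20 (edgeR adjusted p = 0.0535, DESeq2 adjusted p = 0.000807). All 3 libraries of ZT 20 lay above those of ZT 16. Foxa2 passed in edgeR with each other count filter (adjusted p = 0.0487 and 0.0496), without ZT 12 (0.0279), without HFD ZT 8 replicate 3 (0.0361), and without HFD ZT 12 replicate 3 (0.0309). Cebpb passed with DESeq2 (adjusted p = 0.0326) and in edgeR without HFD ZT 12 replicate 3 (adjusted p = 0.0292). That library carried the light phase label in its group and had the lowest Cebpb there.

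With a 24 h cosine, 1 of the 9 genes passed (edgeR), against 8.52% of all genes, a share near that background. This was Nr1h4, with means of 145 ± 14.8, 148 ± 28.8, 166 ± 20.6, 179 ± 27.4, 217 ± 33.8, and 185 ± 6.92 CPM (SD, n = 3) from ZT 0 to ZT 20, an amplitude of 0.26 log2 units, and a peak at ZT 15.4 (edgeR adjusted p = 0.0412). The call was lost when any of 13 of the 18 libraries was left out (adjusted p from 0.0117 to 0.136 over the 18), with library size scaling (0.0682), and with an average of 1 count as the filter (0.0563). Foxa2 had an amplitude of 0.43 and a peak at ZT 20.6 (edgeR adjusted p = 0.0648, DESeq2 adjusted p = 0.0204) and passed without HFD ZT 0 replicate 1 (0.0316), HFD ZT 4 replicate 3 (0.0343), or HFD ZT 12 replicate 3 (0.0461), and Cebpb had 0.50 and ZT 10.6 (edgeR adjusted p = 0.109, DESeq2 adjusted p = 0.0409) and passed without HFD ZT 0 replicate 1 (0.0237) or HFD ZT 12 replicate 3 (0.0482). DESeq2 called 1693 of all genes in this test. Foxa1 had 0.28 and ZT 17.1 (edgeR adjusted p = 0.105). Hnf4a had the smallest amplitude, 0.08 log2 units (edgeR adjusted p = 0.681).

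Of the FXR targets, 4 of 5 tested passed the cosine test on the HFD with edgeR, against 8.52% of all genes. The calls of listed genes other than the 9 were not checked with other settings or with libraries left out. Cyp7a1 had an amplitude of 1.25 log2 units and a peak at ZT 10.8 (edgeR adjusted p = 0.0232), and Cyp8b1, the 12α-hydroxylase of bile acid synthesis, had 0.58 and ZT 21.6 (edgeR adjusted p = 0.0361). The bile salt export pump gene Abcb11 peaked at ZT 2.10 with 0.45 and Abcb4 at ZT 2.16 with 0.28 (edgeR adjusted p = 0.0422 and 0.0320). Nr0b2 did not pass (edgeR adjusted p = 0.616). Among the other lists, 1 of 14 companion hepatocyte factors (Gata4), 2 of 8 companion adipocyte factors (Stat5a and Stat5b), 0 of 7 HNF4A targets, 0 of 6 FOXA targets, 1 of 5 C/EBP targets (Gys2), and 3 of 7 PPARγ targets (Lpl, Cidec, and Pnpla2) passed.

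On AIN93G, where ZT 0 to ZT 12 were liver, 0 of the 9 genes passed the test of time with edgeR or DESeq2. With edgeR, 0% of all genes were called, and 1 member had an unadjusted p under 0.05, against 9.96% of all genes. This member was Cebpa, at 388 ± 11.3, 578 ± 127, 646 ± 114, and 441 ± 111 CPM (SD, n = 3, edgeR adjusted p = 0.359). On the HFD, the same times gave 393 ± 19.3, 598 ± 90.8, 578 ± 83.2, and 504 ± 71.7 CPM. In both diets the 3 libraries of ZT 0 lay below the 3 of ZT 4.

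**Figure D5:**
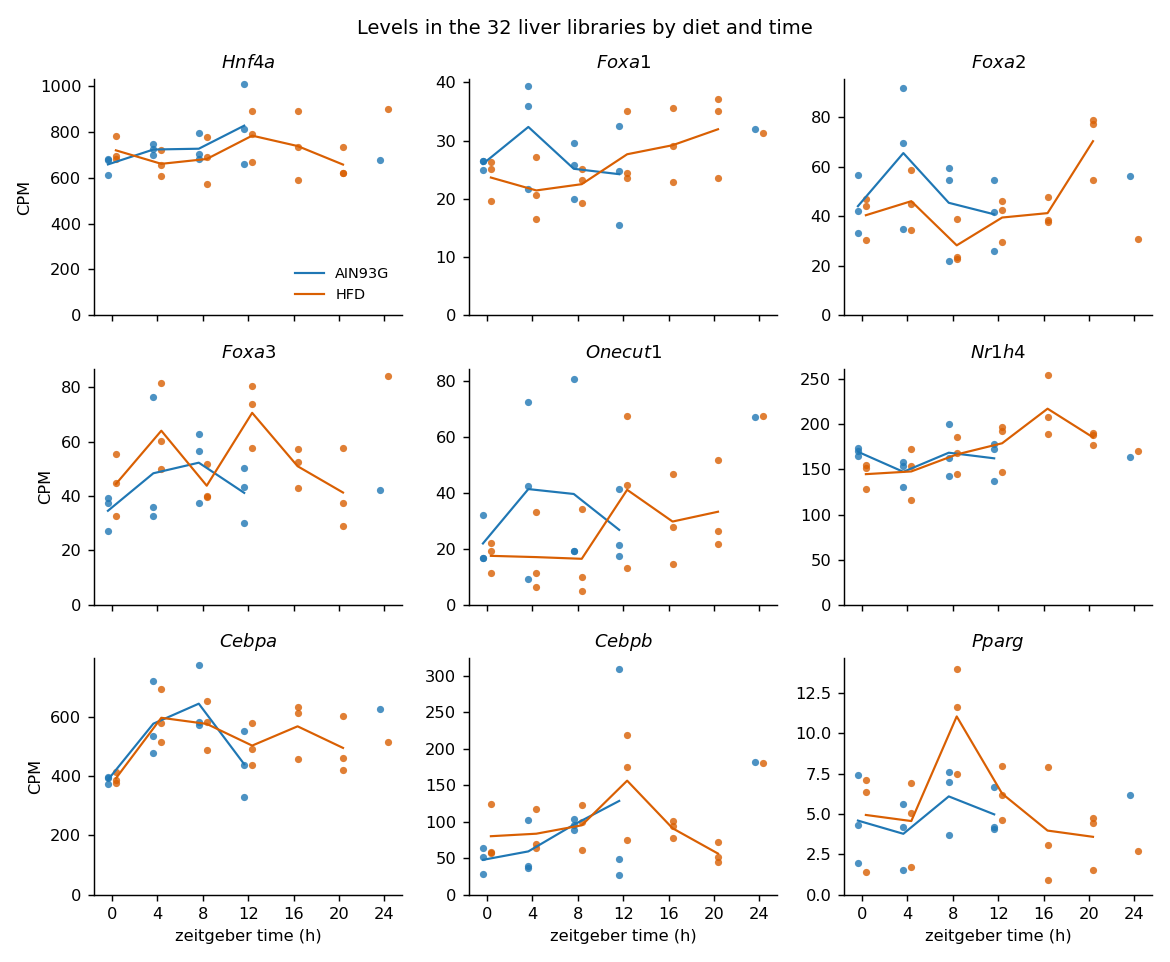
TMM-scaled CPM of each gene in the 32 liver libraries against zeitgeber time, with points for libraries and lines through the means of groups with 3 liver libraries. The AIN93G lines end at ZT 12, and at ZT 24 each diet has 1 point. Cebpb reached 310 CPM in 1 of the 3 AIN93G libraries of ZT 12, and Pparg was highest at ZT 8 on the HFD.

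Cebpb differed widely within liver groups. At AIN93G ZT 12 it was at 310, 27.03, and 48.4 CPM, and at HFD ZT 12 it was at 219, 175, and 74.5 CPM. The 2 libraries with a light phase label were the lowest of their groups, at 27.03 and 74.5 CPM. Over the 32 liver libraries, the coefficient of variation was 64.7% for Cebpb, 68.8% for Onecut1, and 55.0% for Pparg. It was 37.0% for Foxa2, 32.1% for Foxa3, 23.1% for Foxa1, 21.4% for Cebpa, 16.1% for Nr1h4, and 13.7% for Hnf4a.

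Between the adipocyte-rich groups AIN93G ZT 20 and ZT 16, only 4 of the 9 genes had enough counts to be tested. None of them passed with edgeR, and 0% of 14016 genes were called. Of the 4, 1 had an unadjusted p under 0.05, against 9.9% of all genes. Pparg, whose 3 values at ZT 20 all lay above the 3 at ZT 16 given above, had a log2 difference of 0.64 ± 0.14 (SE, edgeR unadjusted p = 0.0034, adjusted p = 0.487) and passed with DESeq2 (adjusted p = 0.0167), as did 156 of all genes. Lymphocyte markers had a median log2 difference of −2.28 between the same groups, with 0 of 6 called, and their part in the Pparg values was not tested. Cebpa (0.18 ± 0.34), Cebpb (−0.12 ± 0.15), and Foxa1 (0.02 ± 0.81) did not pass with either.

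Likeness between genes was described over the 32 liver libraries by the correlation of log2 CPM, which is a description over libraries that share diet, time, and depth. Foxa1 and Foxa2 were the most alike pair among the 9 (r = 0.74, rho = 0.76), followed by Foxa1 and Onecut1 (r = 0.68, rho = 0.68), while Foxa3 correlated weakly with both (r = 0.02 and −0.20). Among 11999 other genes, the nearest to Foxa2 was Gata4 (r = 0.75), a GATA factor of early liver development, and the nearest to Cebpb was Nr1i2 (r = 0.89), the xenobiotic receptor PXR, followed by Mknk2 (r = 0.89). The nearest to Nr1h4 was Usp10 (r = 0.85) and then Timm9 (r = 0.79), to Cebpa C77080 (r = 0.84) and Gpr146 (r = 0.81), to Hnf4a Il1r1 (r = 0.80) and Susd6 (r = 0.78), and to Onecut1 Arid5b (r = 0.78) and B4galt1 (r = 0.77). Foxa1 was nearest to Ikzf4 (r = 0.79), and Foxa3 to Ttpal (r = 0.75) and Hao1 (r = 0.70). Cyp2b13 was among the genes most like Pparg (r = 0.73).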

How the data were processed

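RNA was isolated with a lipid tissue kit, and poly(A) libraries were sequenced in pairs by a company. The authors deposited 1 table of counts per gene for 42 libraries, not normalized, and no per-sample column was left unused. The submitters' processing notes name fastp, STAR, HTSeq 0.6.1, DESeq, STAR-Fusion, and the build mm10, and strand use in counting is not given in the sources used here. Coordinates of start windows are from RefSeq on GRCm38.p6. A floor of 3 counts per library was chosen, at total counts of 14592481 to 21368409, and the bounds on ratios rest on it.

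R 4.3.3 was used with DESeq2 1.42.0, limma 3.58.1, and edgeR 4.0.16. Diets at each time point were tested with the quasi-likelihood test of edgeR (TMM, no block) among the 13394 genes that averaged 25 counts or more in the 42 libraries, and the other comparisons among genes that did so in the libraries of the fit. Adjusted p-values are Benjamini-Hochberg values over all genes tested, with a threshold of 0.05. SE values were derived from the quasi-likelihood F. Log2 CPM had a prior count of 2, and correlations of the adipocyte-rich libraries used 100000 permutations, two-sided. The tests were checked on simulated data. Alternatives were DESeq2, library size scaling, other count filters, leaving out ZT 12, and leaving out each library.

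The 9 genes, the marker, target, and companion lists, and the split by Alb at 10000 CPM were chosen with earlier results of these data known. Genes named are the 9, at most 4 per list by mean CPM plus those needed to state a small count or an exception, and the 2 genes most like each of the 9, of which 1 is not reported here. Ebf1, Csn2, and Wap were named after their values were seen. The sources give 3 RNA extractions per group, and p-values measure the spread between these.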

Additional observations from a re-analysis of the deposited data

Results flagged for a closer look

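Nr1h4 was flagged because its diet difference went in opposite directions at different times with no overlap between the diets. The log2 fold change, HFD over AIN93G, was −0.22 at ZT 0, 9.20 at ZT 16, and 9.30 at ZT 20. The difference between these times was not tested, and at ZT 16 and ZT 20 the AIN93G libraries were adipocyte-rich, with Alb at 49.4 CPM at most.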

How the results depend on the processing

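No paired analysis was possible because the replicate numbers were given in accession order and tie no sample of one group to a sample of another. Some sample titles share a leading number across times within a diet, but no label says what it names, and it was not used. Of the 5 genes higher in liver and the 1 higher in the adipocyte-rich libraries without overlap, the counts stayed 5 and 1 with library size scaling, at ZT 16 and ZT 20 alone, and within AIN93G. The number of members called was 7 at ZT 16 and 6 at ZT 20. With at least 25 counts in every library, a filter that leaves out genes missing from one tissue, it was 1 and 0, and it ranged from 6 to 7 at ZT 20 over the libraries left out. For AIN93G ZT 20 against ZT 16, DESeq2 called 1. For time on the HFD, edgeR called 0, DESeq2 2, each other count filter 1, the fit without ZT 12 called 1, and leaving out each library gave 0 to 2. For the 24 h cosine, edgeR called 1, DESeq2 3, library size scaling and the looser filter 0, and leaving out each library gave 0 to 3. Over all genes, DESeq2 called more than edgeR at ZT 0 (106 against 14), ZT 4 (30 against 0), ZT 8 (58 against 0), ZT 12 (5 against 0), and ZT 24 (3 against 0), over ZT 0 to ZT 12 (80 against 18), for the interaction (8 against 0), for time on the HFD (1547 against 325) and on AIN93G (278 against 0), for the cosine (1693 against 1023), and for AIN93G ZT 20 against ZT 16 (156 against 0). Without ZT 12, edgeR called 86 genes for diet, 630 for time on the HFD, and 282 for time on AIN93G. Leaving out each library gave 1 to 35 at ZT 0, 2 to 124 over ZT 0 to ZT 12, 175 to 1082 for time on the HFD, 677 to 1703 for the cosine, and 0 to 302 for time on AIN93G. The restriction of the Foxa1 relation to AIN93G was added after the data were seen. Low counts of the liver genes in the adipocyte-rich libraries limit what can be said of their level there.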
